A study of Mus musculus with 2 samples.

Results

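The GC-rich promoter regions bound by tagged Foxf2 were defined by position and base composition. A region was kept when its centre lay within 1 kb of the transcription start site (TSS) of a protein-coding transcript and the central 200 bp of mouse mm9 sequence had a GC content of at least 60%. Of 9165 deposited regions, 1860 met the rule (20.3%), and they are called GC-rich promoter regions here. Another 497 regions lay within 1 kb of a TSS but under the GC minimum (GC-poor promoter regions), and 6808 lay farther away (distal regions). The rule itself used no tag count, motif or gene identity.

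The data were chromatin immunoprecipitation with sequencing (ChIP-seq) from palatal shelves of mouse embryos at E13.5 (embryonic day). The embryos were Foxf2FLAG/FLAG, homozygous for a 3xFLAG epitope placed on the endogenous Foxf2 protein with CRISPR/Cas9. Chromatin from 50 pairs of shelves, pooled, gave 1 anti-FLAG library (26849463 tags) and 1 input library made without antibody (about 19230000 tags, from the deposited columns). Both libraries came from the same tagged tissue, no untagged control was used here, and neither library had a replicate. Differences between regions therefore have no replicate check, and no p-value is given. The intervals below are 95% intervals that treat regions as independent and cover counting error only. Whole shelves were used, so a high tag number from many cells and from strong occupancy in few cells cannot be told apart.

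Foxf2 belongs to the forkhead family of transcription factors and is made in palatal mesenchyme, the tissue that fills the shelves before they lift and fuse into the secondary palate. Forkhead proteins place a helix in the major groove of an AT-rich core, classically GTAAACA and its close relatives. Promoters of broadly expressed and of many developmental genes lie in CpG islands, which are rich in GC and in unmethylated CpG, start transcription at dispersed positions and are usually open in chromatin. An AT-rich core is rare by composition alone in such sequence.

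The 8 highest-scoring GC-rich promoter regions with GTAAACA in the central 200 bp show what such a core looks like in island sequence. Each line gives 29 bases of mm9 around the site, 5′ to 3′ on the strand that holds it, with the heptamer in capitals.
Crebl2, chr6:134780170-134780198, plus strand: ccagtgcgtctGTAAACAcgccgggagcc
Grk6, chr13:55546632-55546660, plus strand: gactgagccaaGTAAACAgagggcggggc
Maml3, chr3:51908925-51908953, plus strand: gcgcgagctcaGTAAACAcggcagcggcg
Tprgl, chr4:153534987-153535015, minus strand: tcgcccttcctGTAAACAggaagtggctc
Odz3, chr8:49640642-49640670, minus strand: ggcggccgggtGTAAACAgagcagcttca
Rora, chr9:69137637-69137665, plus strand: aggggcgcggtGTAAACAgagcggcggcc
Rxrb, chr17:34169225-34169253, plus strand: cccccttgtttGTAAACAcgcgccctcga
Plekhm3, chr1:65003302-65003330, minus strand: agaagccgcttGTAAACAgagccgggccg
In each of these the AT-rich core is embedded in a flank of mostly G and C. Relative to the nearest TSS, their sites lay between -226 bp (upstream, Tprgl) and 391 bp (downstream, Odz3).

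Most GC-rich promoter regions had no such core. The region with the highest score, at Btbd8, is shown as the contrasting case, with every CG dinucleotide in capitals over its central 200 bp.
Btbd8, chr5:107866798-107866997, plus strand: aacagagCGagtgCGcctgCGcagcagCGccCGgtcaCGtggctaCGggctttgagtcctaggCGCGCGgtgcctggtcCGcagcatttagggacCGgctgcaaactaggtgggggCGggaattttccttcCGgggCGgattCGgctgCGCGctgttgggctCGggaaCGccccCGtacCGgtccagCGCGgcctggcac
This window held 24 CpG, the median number of the 1860 regions, and no forkhead heptamer. A forkhead heptamer did occur in the flanks of the deposited Btbd8 region, outside the window. For comparison, the central 200 bp at Maml3, which encodes a coactivator of Notch signalling, is shown with the GTAAACA heptamer in capitals.
Maml3, chr3:51908842-51909041, plus strand: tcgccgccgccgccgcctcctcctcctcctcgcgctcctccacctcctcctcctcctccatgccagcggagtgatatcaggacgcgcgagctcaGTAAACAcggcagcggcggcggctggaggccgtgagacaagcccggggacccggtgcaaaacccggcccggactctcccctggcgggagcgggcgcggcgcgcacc
Over all members the central 200 bp had a median GC content of 73.5% (range 60 to 90.5). The ratio of observed to expected CpG was 0.913 in the median region and 0.758 in 45032 windows of 200 bp that met the same rule on GC and distance and held no region. Those windows had a median GC content of 66%, so the members lay in the richer end of GC-rich promoter sequence.

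GC-rich promoter regions were mostly of moderate strength. The median member had 31 ChIP tags (30 to 32), 2 input tags (1 to 2) and a deposited fold over input of 13.85 (13.61 to 14.33). The caller required 10-fold, which bounds the fold from below. ChIP tags ranged from 14 to 243, with the middle of the distribution between 23 and 45, and input tags ranged from 0 to 13. GC-poor promoter regions had a median of 27 ChIP tags (25 to 28), and distal regions had 30 (29 to 31). Per base, the median member had 4.02 times the mean ChIP tag density of the genome and 0.227 times the mean input density. These values were 3.51 and 0.208 in GC-poor promoter regions, and 4.17 and 0.261 in distal regions. The low input density was thus shared by all parts, and the 10-fold rule over input applied to each.

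The extremes were thinner among the members than among distal regions. At most 20 ChIP tags were counted in 19.1% of GC-rich promoter regions, in 35.0% of GC-poor promoter regions and in 31.3% of distal regions. Over 100 tags were counted in 79 members (4.25%, 3.42 to 5.26) and in 8.49% of distal regions (7.85 to 9.18). By the deposited score, members made up 1 of the 10 highest regions, 3 of the highest 100 and 53 of the highest 1000 (5.30%). They made up 14.3% of regions with scores of 17 to 20, 32.2% of those at 26 to 30, 16.7% at 41 to 60 and 4.86% from 61 upwards. The members were thus most frequent among regions of intermediate score.

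Tag number followed the width of the region. The deposited regions are 500 bp peaks stitched where they adjoin, and 54.3% of members kept the single width of 500 bp, against 71.2% of GC-poor promoter regions and 68.1% of distal regions. Members of 500 bp had a median of 25 ChIP tags (n = 1010), those of 625 to 750 bp had 36 (n = 359), those of 751 to 1000 bp had 47 (n = 348), and those of 1002 to 2598 bp had 74 (n = 143). Across the 1860 members, Spearman's rho of ChIP tags was 0.708 with width and 0.815 with input tags. All these values come from the same 2 libraries, and the 10-fold rule itself ties ChIP to input tags. With GC content of the centre the rho was 0.141, and the median rose from 28 ChIP tags at 60 to 65% GC to 35 at 80% or more.

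**Figure D1:**
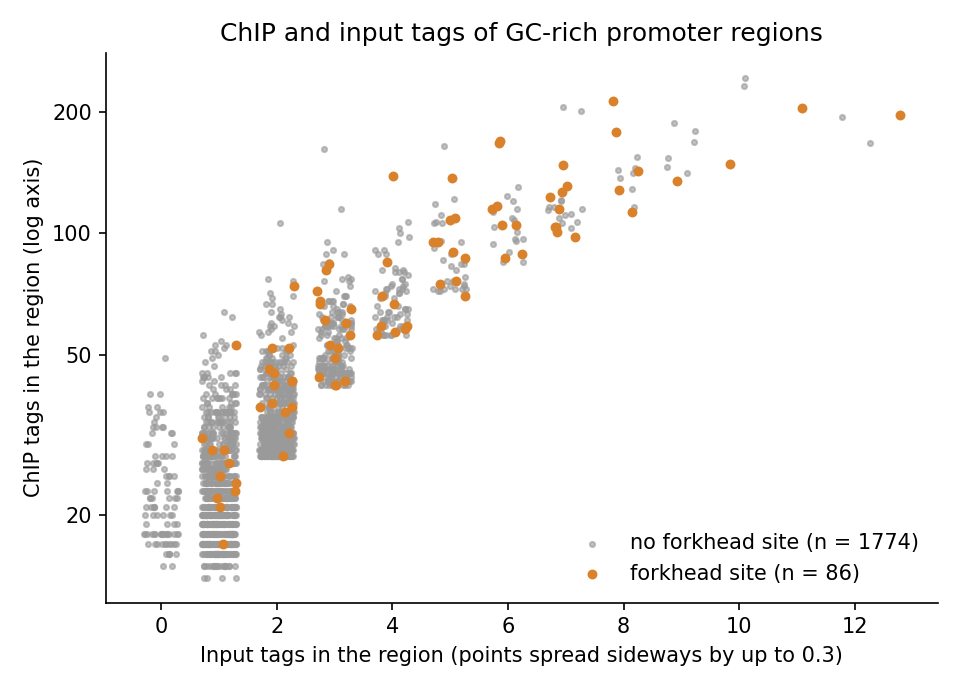
ChIP tags (vertical log axis) against input tags (horizontal axis) in each of the 1860 GC-rich promoter regions, with the 86 that have a forkhead heptamer in the central 200 bp in orange and the other 1774 in grey. The straight lower edge at each input tag number is the 10-fold requirement of the peak caller, and orange points lie mostly among regions with many tags of both kinds.

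The highest score among the members, 178, belonged to Btbd8, a gene of the BTB domain family, at chr5:107866521-107867273. The region held 188 tags in the ChIP library and 9 in the input, which is 14.96-fold (exact conditional interval 7.72 to 33.2), and its centre lay upstream, at -119 bp from the TSS. Ypel3, a small Yippee-family protein gene linked to growth arrest, followed with 162 tags in ChIP and 3 in input (38.68-fold, interval 13.003 to 189.5), centred 10 bp downstream of the TSS. Crebl2, a leucine zipper factor gene, had 148 against 7. The Ypel3 and Crebl2 regions were centred within 10 bp of the start site, and the intervals of Btbd8 and Ypel3 overlap.

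The other 7 of the 10 highest scores ranged from 94 to 104. They belonged to Prkdc (the catalytic subunit of DNA-dependent protein kinase), Bbc3 (the apoptosis effector Puma), Grk6 (a kinase of G protein-coupled receptors), Rplp0 (a ribosomal stalk protein), Maml3, Baz2b (a bromodomain protein) and Ankrd40. Their ChIP tags ranged from 98 at Grk6 to 144 at Baz2b, with 4 to 8 input tags. The Baz2b region was the exception in position, centred 749 bp downstream of the TSS. All 10 regions held at least 1 forkhead heptamer somewhere in the deposited region, although for 7 of them it lay outside the central 200 bp.

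Tag number picked other genes. The most ChIP tags were at Pik3ca, the catalytic subunit of phosphoinositide 3-kinase, with 243 against 10 input tags over 1277 bp. Ctdsp2, a small phosphatase of the RNA polymerase II tail, had 232 against 10 over 1926 bp, the teneurin gene Odz3 had 213 against 8, the septin gene Sept7 had 206 against 7, and the antiproliferative gene Btg1 had 205 against 11. Their scores were 29 at Pik3ca, 34 at Ctdsp2, 45 at Btg1, 73 at Sept7 and 92 at Odz3, so the order by score was not the order by tags. The highest deposited folds were at regions with no input tag, which 102 members had (5.48%), and the caller wrote 0.5 tags in its place. Usf2, a basic helix-loop-helix factor gene, had 49 ChIP tags against 0, at least 11.7-fold higher when set against a floor of 3 input counts in the region (the exact conditional lower limit is 9.16). On the same floor, Ctcf, the insulator factor gene, was at least 9.55-fold higher, with 40 tags against 0 (exact lower limit 7.42). Cirbp, a cold-inducible RNA-binding protein gene, and Pkdcc, a secreted kinase gene needed for palate and limb growth in mice, were at least 8.84-fold higher, with 37 tags against 0 (exact lower limit 6.83).

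The centres of GC-rich promoter regions gathered just downstream of the TSS. The median centre lay 127 bp downstream (113 to 140), the middle of the distribution ran from -16.25 to 298 bp, and 70.97% of centres were downstream (68.9 to 73.0). A TSS lay inside the deposited region for 71.6% of members, against 40.04% of GC-poor promoter regions. Of the member centres, 30.3% lay within 100 bp of the TSS, 63.5% within 250 bp and 88.8% within 500 bp. GC-poor promoter regions were spread over the whole 2 kb around the TSS, with 52.5% of centres downstream, 18.5 points fewer (13.6 to 23.3). Much of the shift is shared by GC-rich sequence in general: 29270 of the 45032 GC-rich windows without a region were downstream (64.6 to 65.4%). Their median of 100 bp is a step of the grid on which these windows were laid. Between -100 bp and under 400 bp lay 70.5% of member centres and 65.4% of those windows. The windows were 200 bp tiles laid end to end, so around a lone TSS their centres fall on a fixed grid that includes -100 bp. The tiles counted in that span together cover more than its length, so the 2 shares are not like for like.

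**Figure D2:**
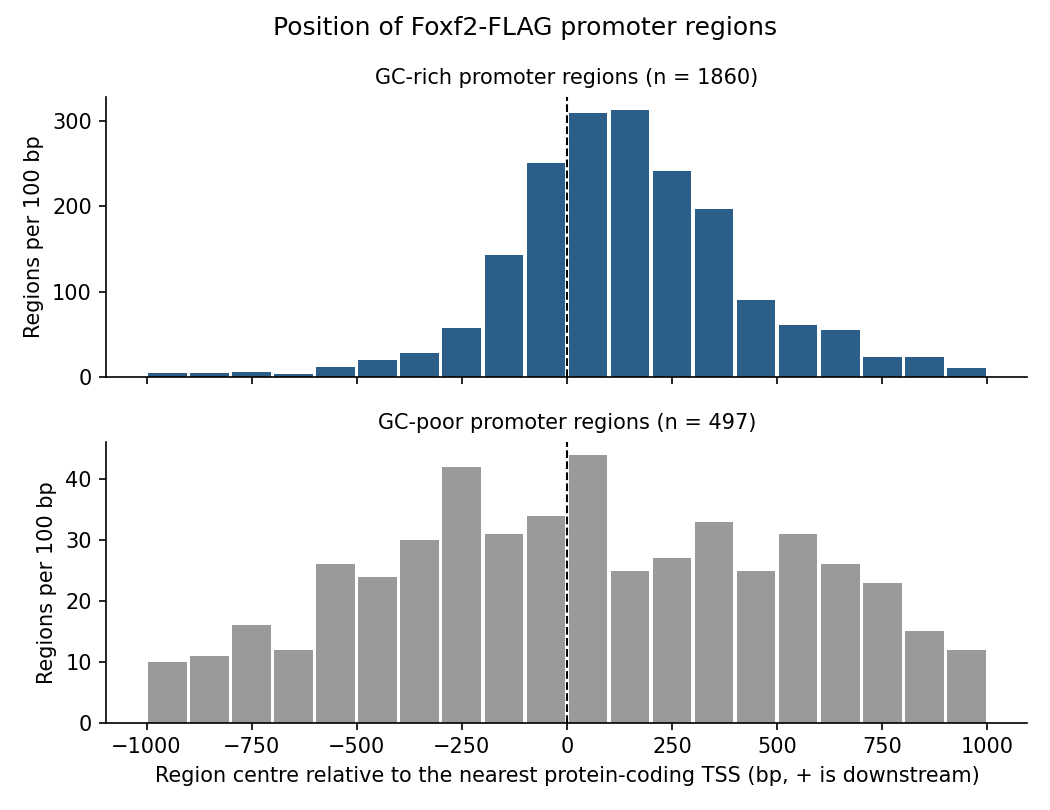
Number of regions per 100 bp (vertical axes, different scales) by distance of the region centre from the nearest protein-coding TSS in bp, with the TSS dashed, for 1860 GC-rich (upper) and 497 GC-poor promoter regions (lower). The GC-rich regions peak at 313 regions between 100 and 200 bp downstream, and the GC-poor regions show no comparable peak.

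By annotation, 558 of the 1860 member centres lay in an untranslated region, 323 (17.4%) in coding sequence, 39 (2.10%) in another exon and 940 (50.5%) in no exon. A protein-coding gene covered 84.5% of the centres. Position carried little of the variation in strength. Median ChIP tags were 31 in each of the 4 position classes from -1000 to 400 bp and 33 from 400 to 1000 bp, and rho between absolute distance and ChIP tags was 0.018. The share with a forkhead heptamer was 7.11% (4.96 to 10.1) in the 200 bp upstream of the TSS and 3.70% (2.48 to 5.49) in the 200 bp downstream.

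A forkhead heptamer was rare in these regions, yet far more frequent than the same letters read backwards. The forkhead heptamers searched on both strands were GTAAACA and ATAAACA, which share their last bases, and the variants GTAAATA and ATAAATA. At least 1 was present in the central 200 bp of 86 members (4.62%, 3.76 to 5.68), against 29.6% of GC-poor promoter regions and 51.5% of distal regions. The same letters read backwards, which keep the base composition, were present in 10 members (0.538%), 4.09 points fewer (3.11 to 5.17). Backwards they were present in 14.7% of GC-poor promoter regions and 24.0% of distal regions, so the backward shares differed between the parts too. The 45032 GC-rich windows without a region held a forkhead heptamer in 1.41% of cases, so the member share was 3.27 times theirs. With the windows weighted to the GC content of the members, a step chosen after the shares were seen, the ratio was 5.07. In those windows the backward reading was almost as frequent, at 1.31%. ATAAATA reads the same backwards, so its matches, in 6 members and 152 of the windows, count in both readings.

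GTAAACA carried most of the difference. It was present in 54 members (2.90%, 2.23 to 3.77) and its backward reading in 3, a difference of 2.74 points (2.002 to 3.61). GC-rich windows without a region held it in 279 cases (0.6196%) (ratio 4.69, or 6.96 with weighting), and distal regions held it in 18.9%. ATAAACA was present in 20 members against 1 backwards, while in distal regions it was more frequent than GTAAACA, at 25.6%. Read backwards, GTAAACA was present in 5.57% and ATAAACA in 5.83% of distal regions. GTAAATA was present in 7 members against 0 backwards, and ATAAATA, which reads the same backwards, in 6. GACGCAA, an alternative target of certain forkhead factors, was present in 15 members against 22 backwards, a difference whose interval spans 0 (-1.06 to 0.280 points). In windows 2 kb upstream of the same regions, the forkhead share was 18.5% and the backward share was slightly higher, at 19.03%.

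The share with a forkhead heptamer rose steeply with tag number. It was 0.282% among members with 14 to 20 ChIP tags (1 of 355), 1.69% at 21 to 30, 2.64% at 31 to 45, 7.72% at 46 to 70, 15.6% at 71 to 100 and 34.2% at 101 to 243 (27 of 79, 24.7 to 45.2). The backward share was between 0 and 1.27% in these classes. Seen from the site, members with GTAAACA had a median of 84.5 ChIP tags (67 to 98, n = 54, range 23 to 213) and 5 input tags, and members without it had 31 (30 to 31, n = 1806, range 14 to 243) and 2 input tags. The ranges overlap, and the fold over input did not separate them, at 13.3 and 13.97. The members with GTAAACA were also wider, with a median of 762 bp against 500 bp. Among regions of exactly 500 bp, the median was 42 ChIP tags with the site (37 to 70, n = 9) and 25 without (24 to 26).

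**Figure D3:**
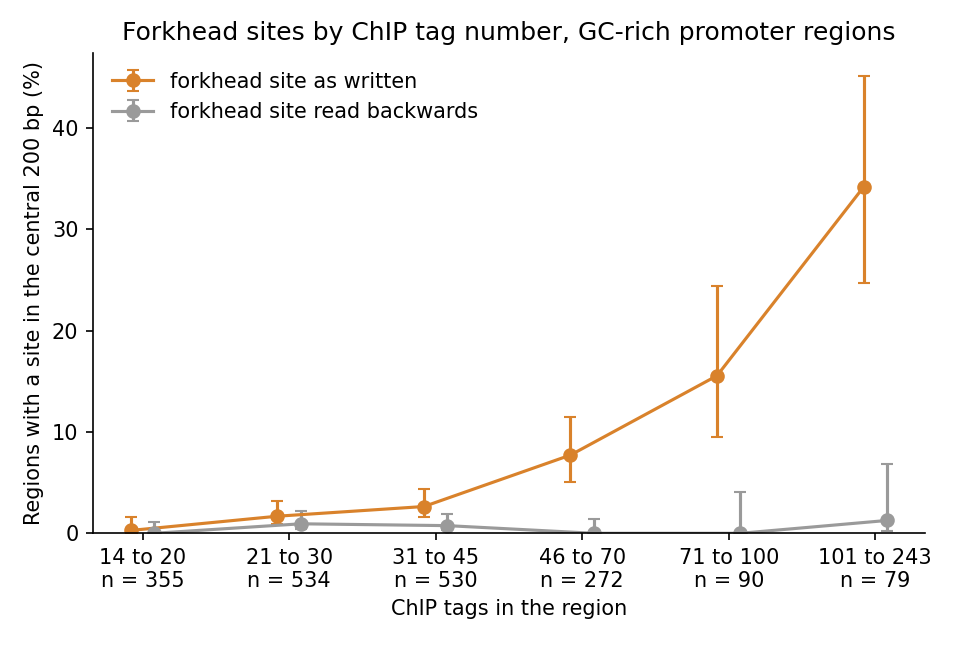
Share of GC-rich promoter regions with a forkhead heptamer in the central 200 bp (vertical axis, %) in 6 classes of ChIP tag number (horizontal axis), as written (orange) and with its letters read backwards (grey); bars are Wilson 95% intervals. The orange share goes from 0.282% to 34.2%, and the grey share is at most 1.27%.

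The score, which ranks regions differently from tag number, gave the same order at its upper end. A forkhead heptamer was present in the central 200 bp of 20.9% of members with scores of 41 to 60 and of 33.3% from 61 to 178. In the whole deposited region, the share was 10.9% of 1639 members with scores of up to 40 (5.19% backwards), 45.1% of 182 members from 41 to 60 (10.99% backwards) and 89.7% of 39 members above 60 (76.4 to 95.9; 5.13% backwards). Median widths in these classes were 500, 632.5 and 752 bp. Of the 39 members with the highest scores, 35 thus contained a forkhead heptamer, 13 of them in the central 200 bp.

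GTAAACA occurred close to the region centre and beyond it. Over all members, 57 GTAAACA sites lay within 100 bp of the centre, 66 between 100 and 250 bp, and 84 between 250 and 500 bp. The backward reading gave 3, 8 and 65 sites over the same distances. Per base, GTAAACA as written declined with distance from the centre, and its backward reading climbed. All 4 forkhead heptamers together did not decline, with 91, 161 and 337 sites as written and 10, 49 and 282 backwards over the same distances. Within the central window, 29 of the 54 members had the site within 50 bp of the centre. The sites lay at a median of 58.5 bp downstream of the TSS (1.0 to 185), 35 of 54 downstream, and 24 of 54 pointed along the gene (44.4%, 32.0 to 57.6). The strand of the site therefore showed no lean beyond counting error.

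**Figure D4:**
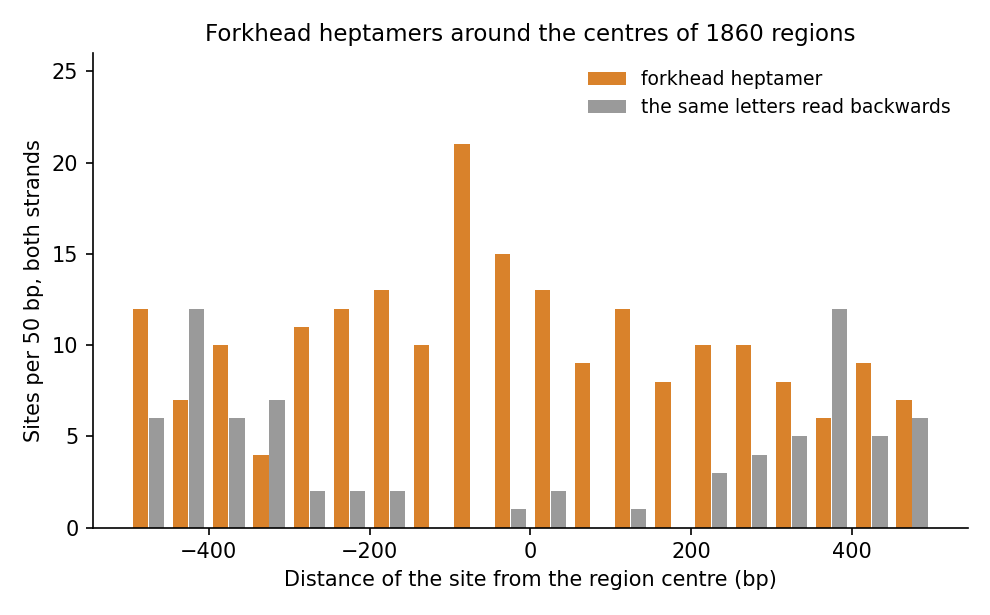
GTAAACA sites on both strands per 50 bp (vertical axis) by distance from the centre of the 1860 GC-rich promoter regions in bp (horizontal axis), as written (orange) and read backwards (grey). Within 100 bp of the centre there are 57 sites as written and 3 backwards, and the grey bars approach the orange ones beyond 250 bp.

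Some of the bases beside GTAAACA differed from those at distal sites. T followed the heptamer in 5.56% of the 54 members (1.91 to 15.1) and in 22.7% of 1287 distal regions (20.5 to 25.1). T preceded it in 40.7% of members (28.7 to 54.0) and in 55.9% of distal regions (53.2 to 58.6), with overlapping intervals. The third base after the heptamer was C in 53.7% of members (40.6 to 66.3) and in 23.2% of distal regions (21.01 to 25.6). In 57 GC-poor promoter regions T followed in 19.3% and the third base was C in 24.6%. T preceded the heptamer there in 40.4% (28.6 to 53.3), much as in members. GC content was part of the choice of members, so a flank richer in G and C follows from the rule.

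Sites of some other promoter factors, words shorter than the heptamers or richer in G and C, were far more frequent than forkhead heptamers. The AP-2 site GCCNNNGGC was present in 38.2% of members and in 24.7% of windows without a region, a difference of 13.48 points (11.3 to 15.7), but in 34.6% of windows weighted to the GC of the members. Its backward reading was present in 39.6% of members. The SP/KLF site GGGGCGGGG was present in 15.2% of members, 10.97% of windows and 15.8% of weighted windows, so the direction turned with the weighting. The ETS site CGGAAG was present in 15.1% of members (14.6% backwards), 14.5% of windows and 13.9% of weighted windows. The YY1 site AAGATGGC was present in 40 members (2.15%) against 2 backwards, and in 1.75% of windows and 1.82% of weighted windows. The CREB site TGACGTCA was present in 22 members (1.18%), in 0.788% of windows and in 0.702% of weighted windows. Its difference from the windows was 0.394 points, with an interval that spans 0 (-0.0151 to 1.001).

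CCAAT and an E-box were scarcer in members than in the windows. CCAAT, the NF-Y site, was present in 8.98% of members, 14.6% of windows (a difference of -5.61 points, -6.87 to -4.18) and 10.6% of weighted windows. The E-box CACGTG was present in 3.66% of members, 5.02% of windows (a difference of -1.36 points, -2.15 to -0.390) and 4.62% of weighted windows. TATAAA was present in 15 members (0.806%, 0.489 to 1.33), in 1.03% of windows and in 0.637% of weighted windows, so the direction turned with the weighting. The homeobox core TAATTA was present in 3 members (0.161%), in 0.284% of windows and in 0.146% of weighted windows, where the direction turned as well. Motifs overlapping each other were counted for each motif, and a match describes letters, not occupancy.

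The 1860 regions lay nearest to the TSSs of 1842 protein-coding genes, 8.24% of 22359. Of the 16487 genes with a GC-rich promoter under the same rule, 11.2% had a member (10.7 to 11.7). These 2 percentages are the background for the lists below. A pair of members was found at 18 genes and more at none. A second gene had its TSS within 1 kb of the centre for 165 members (8.87%), so the gene named is the nearer one. Among the named genes, these members include those at Ypel3, Prkdc, Rxrb, Srsf7, Vars, Fgfr1 and Col4a2. The members lay on 20 chromosomes, with 34 on X. Of X-linked genes with a GC-rich promoter, 33 of 573 had a member (5.76%, 4.13 to 7.98), and of autosomal ones 1809 of 15910 (11.4%, 10.9 to 11.9).

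Genes with a member were longer than other genes with a GC-rich promoter, at a median of 40.96 kb (38.0 to 44.6) against 18.6 kb (18.1 to 19.2). In 4 equal classes of gene length, 5.51%, 8.22%, 11.8% and 19.1% of genes had a member, from the shortest to the longest. A distal region assigned within 100 kb was present at 467 of the 1842 genes (25.4%) and at 15.2% of the others, a difference of 10.2 points (8.17 to 12.3). Within these classes the shares with a distal region were 17.6% against 9.45%, 13.6% against 9.12%, 18.2% against 13.9% and 37.1% against 30.1%. A head-to-head start, with the TSS of another gene on the opposite strand within 1 kb upstream, was less common, at 7.65% of genes with a member and 13.4% of others (a difference of -5.74 points, -7.002 to -4.33). In the shortest class those shares were 11.5% and 12.8%, with overlapping intervals, and in the longest 5.33% and 9.42%. Only the nearest gene was credited with a region, so the other gene of a head-to-head pair could count as without a member. Of the 1860 members, 120 (6.45%) had a head-to-head start at their nearest gene. The part of this crediting in the lower shares was not tested.

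Lists of genes were drawn by symbol. Since the share with a member rose with gene length over all genes, the median gene length of a list is given beside its count. Genes of basic cell functions had GC-rich promoter regions at about the background rate or under it. Of 621 such genes with a GC-rich promoter, 52 had a member (8.37%, 6.44 to 10.8), against 11.2% of all. Cytosolic ribosomal protein genes had one in 10 of 80 cases (median gene length 3.40 kb), led by Rplp0 (107 ChIP tags), Rps19 (40) and Rpl13a (31). Genes of splicing factors and RNA helicases had one in 16 of 127 (17.8 kb), with Dhx15 (58 tags), which unwinds spent spliceosomes, Srsf7 (64), a splicing regulator, and Snrpb (81), a core snRNP protein. Mitochondrial ribosomal protein genes had one in 1 of 73 (Mrps9, 15 tags; median gene length 7.81 kb). RNA polymerase and Mediator genes had 2 of 57 (14.2 kb), the Mediator kinase module genes Med13l (73 tags) and Med13 (27).

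Proteasome genes had a member in 4 of 50 cases (median gene length 11.6 kb), with Psme4, Psma5 and Psme3 at 30 to 32 tags. Aminoacyl-tRNA synthetase genes had 3 of 35 (26.1 kb), which were Eprs (32 tags), Vars (26) and Mars2 (15). Respiratory chain genes had 6 of 88 (7.44 kb), led by Atp5sl (90), Atp5o (45) and Ndufc2 (35), and histone genes 5 of 75 (0.538 kb), led in score by H3f3b (44 tags), H2afz (41) and H3f3a (91), replacement variants made outside S phase. Cell cycle genes had 5 of 36 (13.47 kb). Ccne2, the cyclin E2 gene, had 137 tags, while the CDK inhibitor gene Cdkn2c had 19 and the activator gene E2f3 had 21.

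Genes of chromatin and protein turnover had shares above the background. Chromatin modifier genes had a member in 23 of 77 cases (29.9%, 20.8 to 40.8), with a median of 43.5 ChIP tags against 31 over all members and a median gene length of 41.5 kb. Smarce1, a subunit of the BAF remodelling complex, had 145 tags, and the histone demethylase genes Kdm5b and Kdm3b had 64 tags against 1 input tag and 97 against 6. Genes of ubiquitin ligases and conjugating enzymes had one in 33 of 174 (18.97%, 13.8 to 25.4; median gene length 29.7 kb), among them the cullin gene Cul1 (74 tags), the conjugating enzyme gene Ube2j1 (47) and Fbxo11 (130), whose loss gives cleft palate in mice. A forkhead heptamer was present in the central 200 bp of 1 chromatin modifier region and 3 regions of the ubiquitin list. The part of gene length in these shares was not tested.

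Developmental genes had GC-rich promoter regions in 50 of 242 cases (20.7%, 16.0 to 26.2), with a median of 39.5 ChIP tags, and 3 of these regions held a forkhead heptamer in the central 200 bp. Regulators of palate development had one in 14 of 42 cases (33.3%, 21.01 to 48.4; median gene length 21.1 kb). Foxf1a, the Foxf1 gene and paralogue of Foxf2, had 81 ChIP tags against 5 input tags, centred at -952 bp, and Prrx1, a paired-class homeodomain gene of cranial mesenchyme, had 44 against 3 at 984 bp downstream. The last pair lay near the edge of the distance rule, as did Twist1 (66 tags, 848 bp downstream). The Foxf2 gene itself had no member, and its nearest region, 6.74 kb downstream of the TSS, had 255 ChIP tags against 12.

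Signalling pathways had a few members each. TGF-beta and BMP genes had 9 of 31 (29.03%, 16.1 to 46.6; median gene length 61.1 kb), and they included the receptor gene Bmpr1a (60 tags), the common mediator gene Smad4 (72) and the inhibitory gene Smad7 (39). Hedgehog genes had 4 of 18 (44.9 kb), with the coreceptor gene Gas1 at 179 tags over 2119 bp, and the transcription factor genes Gli2 at 45 and Gli1 at 17. FGF genes had 5 of 23 (29.2 kb), among them the ligand genes Fgf2 (36) and Fgf18 (30) and the receptor gene Fgfr1 (28). Wnt genes had 7 of 39 (35.7 kb), among them the destruction complex genes Axin2 (61) and Axin1 (40) and the beta-catenin gene Ctnnb1 (38). The shares were 22.2% for hedgehog, 21.7% for FGF and 17.9% for Wnt genes. Each of their intervals spanned the background of 11.2%, so these lists were not told apart from all genes with a GC-rich promoter.

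Forkhead genes, short at a median of 5.49 kb, had a member in 7 of 43 cases, with Foxo3 (104 ChIP tags, 816 bp downstream) and Foxp4 (45) after Foxf1a. Extracellular matrix genes had 4 of 35 (11.4%, near the background), although their median length was 54.7 kb, with the membrane protease gene Mmp14 (62), the integrin gene Itgb5 (52) and the basement membrane collagen gene Col4a2 (29). Osteogenic genes had 2 of 14 (26.5 kb), among them the osteoblast regulator gene Runx2 (44). The intervals of the forkhead (16.3%), extracellular matrix and osteogenic (14.3%) shares all spanned the background. Of 8 marker genes of palatal mesenchyme, Foxf1a, Prrx1 and Twist1 had a member (37.5%, 13.7 to 69.4). Foxf2, Osr2, Msx1, Pax9 and Col1a1 had none. The regions of Foxf1a, Prrx1 and Twist1 are the ones already counted for the palate regulators. Of 24 genes with a GC-rich promoter among 30 markers of epithelium, endothelium, neural cells, muscle, blood and macrophages, 0 had one, which allows a share of up to 13.8%. The background of 11.2% lies within that limit.

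**Figure D5:**
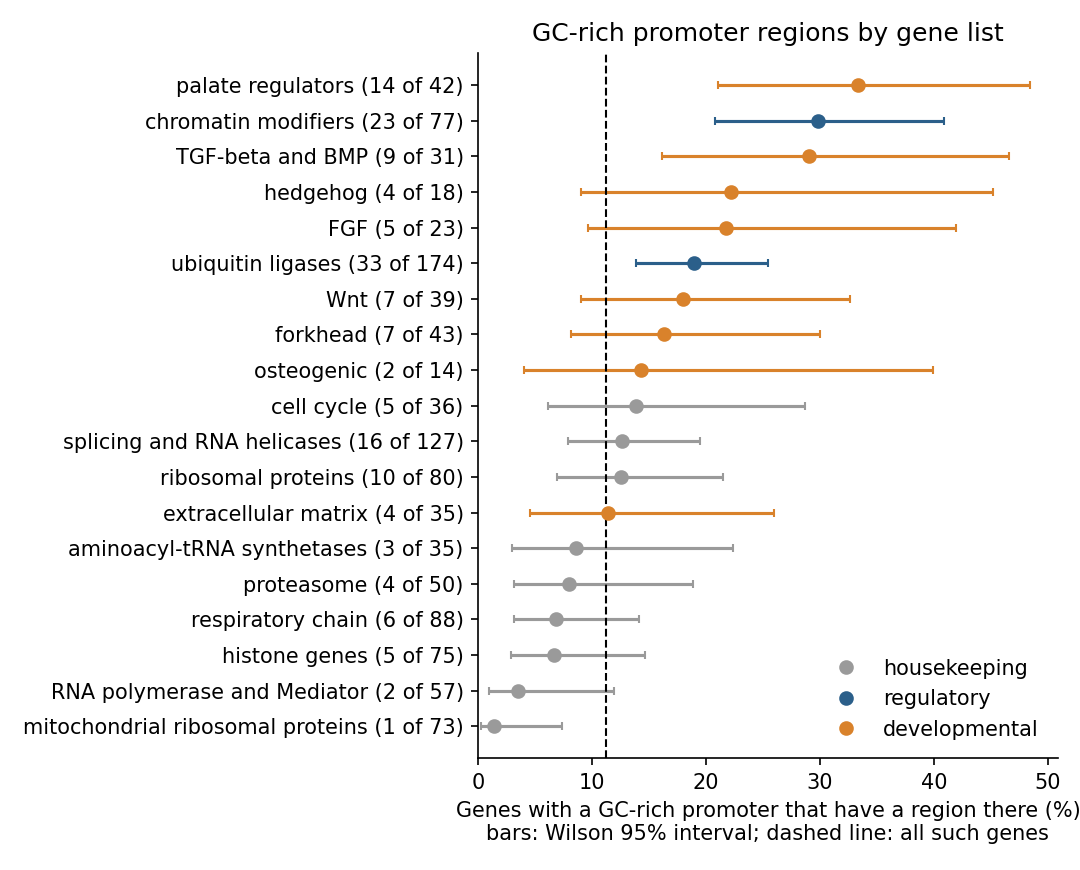
Share of genes with a GC-rich promoter that have a GC-rich promoter region (horizontal axis, %) for 19 gene lists, coloured by kind, with Wilson 95% intervals and the counts beside each name. The dashed line is the 11.2% of all such genes; palate regulators are highest at 33.3% and mitochondrial ribosomal proteins lowest at 1.37%.

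Both limits of the rule cut through a continuum. The member nearest above the GC minimum, at Ndfip1 (60%), had 53 ChIP tags against 3, and the promoter region nearest below it, at 2010109A12Rik (59.5%), had 210 against 8. The 70 members with 60 to under 62% GC had a median of 28 ChIP tags and a forkhead heptamer in 11.4%, and the 71 promoter regions with 58 to under 60% GC had 29 tags and a heptamer in 18.3%. At the distance limit, the member at Pitpnc1 (996 bp) had 28 tags against 2 and the excluded region at Chst2 (1002 bp) had 37 against 1. Median tags were 27 in the 17 members at 900 to 1000 bp and 26 in the 14 GC-rich regions at over 1000 to 1100 bp.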

How the data were processed

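Reads were aligned to mm9, and Bowtie 1.0.0, SAMtools 0.1.19 and HOMER were used, per the submitters' processing notes. For HOMER the sources used here name no version. HOMER findPeaks compared the ChIP with the input tags in histone style, per the file headers, with 500 bp peaks stitched, a 112 bp fragment, at most 1 tag per position, a threshold of 17 tags, a 10-fold excess over input and over the surrounding 10000 bp, and a Poisson p-value of at most 0.0001. The deposited signal columns hold ChIP tags scaled to 10000000 and tag coverage of ChIP and input, with 0.5 for no input tag. The deposited fold is the ratio of these, and the deposited score is the caller's own; both are the authors' values and served only to describe, rank and filter regions within this list. The deposited p-value column entered no result.

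Tags were recovered from the signal as whole numbers (largest deviation 0.134, tolerance 0.15) and summed to the header's 397999. The ChIP depth was 26849463 tags and the input depth about 19230000. Gene starts came from GENCODE vM1 (gene and transcript both protein coding) and sequence from the NCBIM37 genome, which is mm9; coordinates are 1-based. Both strands were searched for motifs in the central 200 bp, read forwards and backwards, and in 45032 windows of equal rule without a region. Shares have Wilson intervals, differences Newcombe intervals, medians order-statistic intervals and a single fold an exact conditional interval, all at 95% (Python 3.11.15, SciPy 1.17.1, statsmodels 0.14.6). The routines were tested on simulated data. PCR copies are not independent molecules, and the caller kept at most 1 tag per position. With 1 library per group, the intervals cover counting error only.

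The members, the 21 motifs and the 25 gene lists were chosen with earlier results of these data known. Of 285 list entries given by symbol, 284 matched. Genes were named by a rule: the 10 highest scores, the 5 highest tag numbers and folds, the 8 highest scores with GTAAACA, the top 3 by score of each list, and those beside each limit. Some genes that the rule names are not reported here. The Foxf2 gene was added as the target. Alternatives changed the GC minimum, window, distance, start sites, peak threshold and motif window. A separate file of the input library was not analysed here.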

Additional observations from a re-analysis of the deposited data

How the results depend on the processing

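No paired analysis of libraries was possible because there was 1 library per group, and no replicate could be left out. The forward and backward readings of a motif come from the same regions, but the interval of their difference treats them as unpaired. Of 108 alternatives to the main results, 79 left the value in place and 29 moved it. None reversed a direction, but most of these results are single counts, shares or medians, which have no direction to reverse. Shares and medians were held to their interval, and numbers of regions and genes to 1.5 times the main number. With a GC minimum of 0.55 the forkhead share was 5.74% (4.62% in the main setting). The share of GC-rich promoter genes with a member (11.2%) was 10.4% with that minimum, 11.7% with 0.65, 9.63% and 12.6% with GC over the central 100 and 400 bp, 10.3% within 500 bp, 10.5% with the most 5′ start sites and 10.6% with at least 1 input tag. With the most 5′ start sites 79.4% of centres were downstream.

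A score of at least 30 left 731 regions and 728 genes (4.42%), with a median of 44 ChIP tags, a fold of 12.65, forkhead and GTAAACA shares of 9.17% and 6.16%, 6.02 points between GTAAACA and its backward reading, and 6.76% of all list genes with a member. A fold of at least 15 left 776 regions and 773 genes (4.69%), with medians of 29 tags and 19.34-fold. Over the whole region the forkhead share, GTAAACA share and difference were 15.9%, 7.85% and 6.61 points, and over the central 100 bp 1.99%, 1.45% and 1.29 points. Of 61 other alternatives, 46 stayed in place, 12 moved and 3 reversed. With windows weighted to the GC of the members, the ratio of the member share to the window share went from 1.39 to 0.961 for GGGGCGGGG, from 0.784 to 1.27 for TATAAA and from 0.567 to 1.11 for TAATTA. That weighting was added after seeing the data. The cause of these shifts was not tested. The counts rest on few input tags per region, which limits the fold of any single region.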
